A study of Mus musculus with 8 samples.

Results

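The desmosome genes followed here are 10 genes that encode the parts of the desmosome: the plaque proteins Dsp, Jup, Pkp1 and Pkp3, the desmogleins Dsg1a, Dsg2 and Dsg3, and the desmocollins Dsc1, Dsc2 and Dsc3. They were listed by name, with earlier results of these data known, so their counts beside the background of all genes are descriptive. The Ensembl identifiers of the count table had been matched to mouse GENCODE symbols. All 10 were among the 25466 genes listed, and all 10 passed the filter on low counts that left 17006 genes for testing. RNA sequencing was done on medullary thymic epithelial cells (mTECs) of wild-type BL6N6 mice aged 4 to 6 weeks, with no treatment. Thymi were digested with collagenase and dispase, and CD45neg Epcampos CDR1neg cells were sorted by surface Tspan8, a tetraspanin that serves as an example of a tissue-restricted antigen, and by MHC class II. The 4 sorted subsets, Tspan8negMHCIIlo, Tspan8negMHCIIhi, Tspan8posMHCIIhi and Tspan8posMHCIIlo, had 2 libraries each that the labels call biological replicates. The sources used here do not give how many mice went into a library. The question was how gene expression differs with Tspan8 at each MHCII level and with MHCII at each Tspan8 level.

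Desmosomes are spot-like junctions that hold epithelial cells together and anchor their keratin filaments. Desmogleins and desmocollins are cadherins that cross the membrane and bind each other between cells. Inside the cell their tails bind plakoglobin, encoded by Jup, and the plakophilins, and desmoplakin, encoded by Dsp, ties this plaque to keratin. In stratified epithelia the cadherins are used by layer: Dsg2 and Dsc2 are found widely in epithelia, Dsg3 and Dsc3 are best known from the lower layers of epidermis, and Dsg1 and Dsc1 from its upper layers. In the thymic medulla, mTECs express genes of many peripheral tissues, and some late mTECs resemble cornifying keratinocytes.

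The promoters of Dsp and Jup are shown because only these 2 of the 10 genes had a window in the promoter set used. Both sequences are RefSeq windows on GRCm38.p6 that run from 250 bases before to 50 bases after the gene start. Capitals mark matches, and 3 motifs were searched. The ETS core was spelled GGAA, or TTCC when read from the other strand. The KLF box was spelled CACCC, or GGGTG when read from the other strand. The TATA box was spelled TATAAA, or TTTATA when read from the other strand. No matches overlap each other here. ETS and KLF factors are known regulators of epithelial genes.
Jup, chr11:100397741-100398040, minus strand: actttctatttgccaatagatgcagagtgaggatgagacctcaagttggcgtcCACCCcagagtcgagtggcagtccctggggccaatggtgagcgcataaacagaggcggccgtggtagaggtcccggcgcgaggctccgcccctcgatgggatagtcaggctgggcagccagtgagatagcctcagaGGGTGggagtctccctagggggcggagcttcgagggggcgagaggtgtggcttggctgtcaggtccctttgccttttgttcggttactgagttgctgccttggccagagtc
Dsp, chr13:38151044-38151343, plus strand: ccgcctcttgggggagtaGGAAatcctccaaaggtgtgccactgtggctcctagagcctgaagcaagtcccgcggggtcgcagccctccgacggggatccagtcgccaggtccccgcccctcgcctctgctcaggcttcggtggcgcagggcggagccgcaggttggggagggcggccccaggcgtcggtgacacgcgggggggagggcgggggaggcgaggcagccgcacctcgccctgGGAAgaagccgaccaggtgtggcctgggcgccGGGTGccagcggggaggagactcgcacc
The Jup window held 2 KLF boxes and 0 ETS cores, and the Dsp window held 1 KLF box and 2 ETS cores. Neither window held a TATA box. Of 32851 windows of the same length, 57.5% held a KLF box, 96.0% an ETS core and 13.6% a TATA box, so these letters are common and describe the windows only.

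Total counts ran from 1941518 to 7783841 per library. Levels are given as CPM, counts scaled to a common library total with TMM factors, and a gene was called when its Benjamini-Hochberg adjusted p in edgeR's quasi-likelihood test was under 0.01 and its log2 fold change (log2FC) was at least 1 in either direction. Tspan8 was at 347 to 404 CPM in the Tspan8pos libraries and 3.65 to 14.6 CPM in the Tspan8neg libraries. H2-Ab1, an MHC class II gene, was higher in the MHCIIhi than in the MHCIIlo subset on both sides of the Tspan8 gate. Its level also differed with Tspan8. Within MHCIIlo it was called lower, at means of 503 CPM in Tspan8pos and 1887 CPM in Tspan8neg. Within MHCIIhi it was at 2525 and 5043 CPM and was not called. The Tspan8 comparisons were thus not made at equal H2-Ab1 levels. The 2 libraries of Tspan8negMHCIIlo stood apart from each other: all 8 thymocyte markers were 2.29 to 4.43 times as high in replicate 2 as in replicate 1, and 9 of the 10 desmosome genes were lower there. Summed over the list, thymocyte markers were at 359 and 1012 CPM in these libraries, and between 67.2 and 218 CPM in the other libraries, and none of the 8 was at 0 in any library. Markers of cortical epithelium, summed over 6 genes, were at 899.9 and 1134 CPM in Tspan8negMHCIIlo against 299 to 486 CPM elsewhere. Ctsl alone was at 605 to 953 CPM in Tspan8negMHCIIlo, most of that sum. Between the Tspan8neg subsets, Ctsl and Cxcl12 were called lower in MHCIIhi and Dll4 was called higher. Fibroblast markers, summed over 6 genes, were at 109.8 to 197 CPM in the Tspan8neg libraries and 65.0 to 89.5 CPM in the Tspan8pos libraries. Of these, Col1a1 and Pdgfrb were called higher in Tspan8negMHCIIhi than in Tspan8negMHCIIlo, while Dcn and Pdgfra were called lower. Endothelial markers, summed over 5 genes, were at 88.7 to 128 CPM in the MHCIIlo and 23.1 to 29.1 CPM in the MHCIIhi libraries, with Emcn at 0 in 3 MHCIIhi libraries. B cell markers, summed over 4 genes, were at 6.96 to 38.0 CPM, and dendritic cell markers, summed over 5 genes, at 68.5 to 127 CPM, with Itgax at 0 in 1 Tspan8posMHCIIlo library. Of 10 mTEC markers, Aire was called lower with Tspan8 at both MHCII levels, while Cldn3 and Cldn4 were called higher at both. The part of these markers in the results was not tested. In such sorted bulk samples, fewer cells of a type and less RNA per cell cannot be told apart.

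Dsp, Jup, Pkp1, Dsg3 and Dsc1 were called higher in Tspan8pos than in Tspan8neg mTECs at both MHCII levels, and Pkp3, Dsc2 and Dsc3 within MHCIIhi. Within MHCIIlo 5 of the 10 genes were called higher and 0 lower, beside a background of 12.1% of all genes tested called higher. Within MHCIIhi 8 of the 10 were called higher, all but Dsg1a and Dsg2, and 0 lower, beside 11.0% of all genes. Summed over the 10 genes, the level was 1871 to 2862 CPM in the Tspan8neg libraries and 5448 to 7049 CPM in the Tspan8pos libraries. Most of the sum in Tspan8pos came from Dsp and Jup, at means of 3477 and 1424 CPM in Tspan8posMHCIIlo. For Dsg1a, Dsg2, Dsc2 and Dsc3 the libraries of the 2 sides overlapped. How many of all genes separate the sides was not counted. The 10 genes took 0.202% to 0.295% of all counts in Tspan8neg and 0.519% to 0.661% in Tspan8pos libraries. The median log2FC of the 10 was 1.22 within MHCIIlo and 1.35 within MHCIIhi, and that of all genes tested was -0.03 in both.

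**Figure D1:**
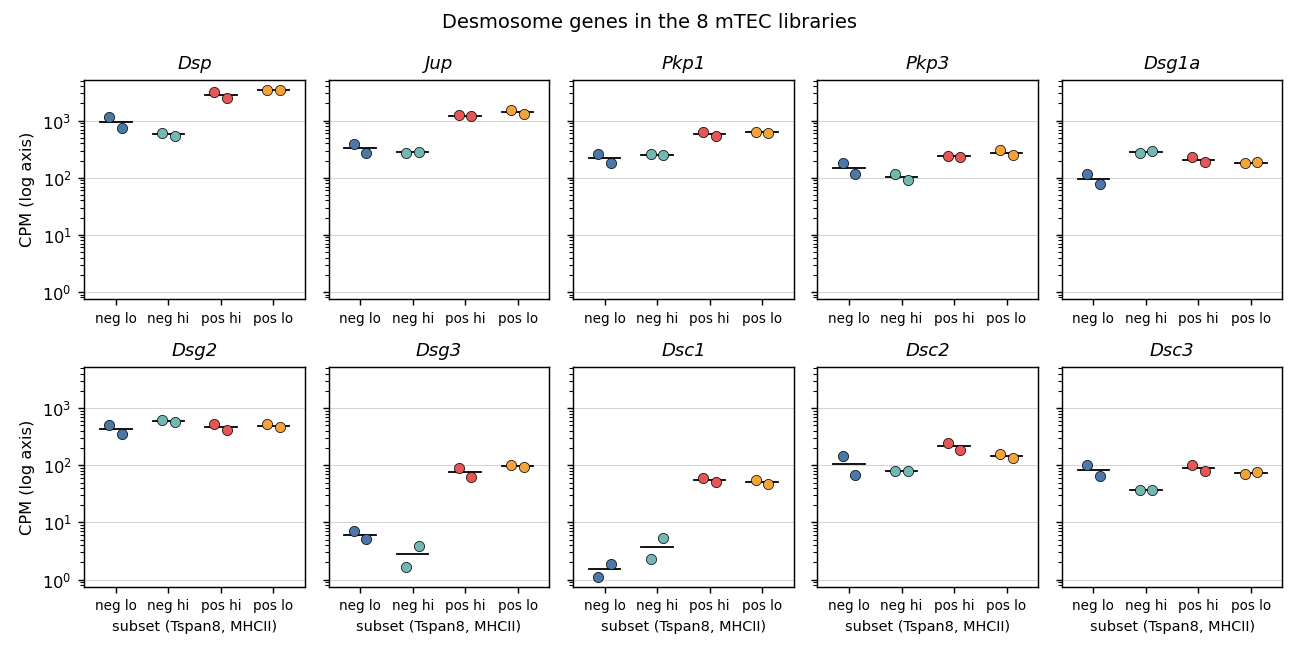
Level of each desmosome gene in CPM (log axis) in every library, by subset (neg and pos for Tspan8, lo and hi for MHCII); points are libraries and the line is the mean of 2. Dsg3 and Dsc1 lie below 10 CPM in the 4 Tspan8neg libraries and above 40 CPM in the 4 Tspan8pos libraries, while Dsg2 spans 351 to 629.9 CPM.

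Dsp, the desmoplakin gene, lies at chr13:38151294-38198577 (GRCm38, plus strand). It was at 1147 and 730.4 CPM in Tspan8negMHCIIlo, 606 and 544 CPM in Tspan8negMHCIIhi, 3196 and 2516 CPM in Tspan8posMHCIIhi, and 3486 and 3467 CPM in Tspan8posMHCIIlo. Every Tspan8pos library was above every Tspan8neg library. The log2FC between Tspan8pos and Tspan8neg was 1.89 ± 0.20 (SE) within MHCIIlo (adjusted p = 2.41e-05) and 2.31 ± 0.20 within MHCIIhi (adjusted p = 6.91e-06). Exons of Dsp overlap Gm10129 on the opposite strand, and 4.86% of its 31-base words are shared with other genes, so reads of the overlap may be split between them.

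Jup, which encodes plakoglobin, the catenin shared by desmosomes and adherens junctions, lies at chr11:100368958-100397763 on the minus strand. It was at 393 and 274 CPM in Tspan8negMHCIIlo, 275 and 282 CPM in Tspan8negMHCIIhi, 1260 and 1186 CPM in Tspan8posMHCIIhi, and 1529 and 1319 CPM in Tspan8posMHCIIlo. The groups on either side of Tspan8 did not overlap. Its log2FC was 2.10 ± 0.17 within MHCIIlo and 2.13 ± 0.17 within MHCIIhi, with adjusted p = 3.73e-06 and 3.66e-06. The interaction, which tests whether the Tspan8 difference differs between MHCII levels, was -0.04 ± 0.23 for Jup (adjusted p = 0.951).

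The plakophilins bind the plaque and draw desmoplakin to the membrane. Pkp1 (chr1:135871395-135919207, minus strand) was at 263 and 179 CPM in Tspan8negMHCIIlo, 257 and 253 CPM in Tspan8negMHCIIhi, 634 and 529.9 CPM in Tspan8posMHCIIhi, and 644 and 613 CPM in Tspan8posMHCIIlo. It rose with Tspan8 by a log2FC of 1.51 ± 0.18 within MHCIIlo (adjusted p = 6.06e-05) and 1.19 ± 0.17 within MHCIIhi (adjusted p = 0.000327). Pkp3 (chr7:141078218-141090510, plus strand) was at 183 and 118 CPM in Tspan8negMHCIIlo, 117 and 89.7 CPM in Tspan8negMHCIIhi, 244 and 229 CPM in Tspan8posMHCIIhi, and 301 and 249.8 CPM in Tspan8posMHCIIlo. Its libraries did not overlap between the Tspan8 sides either. Pkp3 was called within MHCIIhi (log2FC 1.20 ± 0.21, adjusted p = 0.000933), while within MHCIIlo its log2FC of 0.87 ± 0.21 stayed under the fold limit although the adjusted p was 0.00619. The call within MHCIIhi was lost when replicate 2 of Tspan8negMHCIIhi was left out (log2FC 0.94, adjusted p = 0.0252) and in libraries thinned to the smallest total (log2FC 0.98).

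The cadherin genes lie in a cluster on chromosome 18, with the desmocollins on the minus and the desmogleins on the plus strand. Dsg3 and Dsc1 had the widest differences of the 10 genes in both Tspan8 comparisons. Dsg3, the desmoglein of basal keratinocytes and the antigen of pemphigus vulgaris, lies at positions 20510274 to 20547459. It was at 7.02 and 5.19 CPM in Tspan8negMHCIIlo, 1.66 and 3.85 CPM in Tspan8negMHCIIhi, 91.4 and 63.6 CPM in Tspan8posMHCIIhi, and 102 and 95.4 CPM in Tspan8posMHCIIlo. The low levels rest on 8 to 30 counts per Tspan8neg library, above the floor of 3 counts. Its log2FC was 4.02 ± 0.29 within MHCIIlo (adjusted p = 1.81e-06) and 4.70 ± 0.30 within MHCIIhi (adjusted p = 8.87e-07).

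Dsc1, the desmocollin of the upper epidermal layers, lies at 20084184 to 20114871 in that cluster. It was at 1.12 and 1.89 CPM in Tspan8negMHCIIlo, 2.29 and 5.26 CPM in Tspan8negMHCIIhi, 61.1 and 50.8 CPM in Tspan8posMHCIIhi, and 55.0 and 47.6 CPM in Tspan8posMHCIIlo. Tspan8neg libraries held 4 to 41 counts of Dsc1, so its low levels are imprecise. The log2FC was 5.03 ± 0.38 within MHCIIlo (adjusted p = 2.1e-06) and 3.80 ± 0.29 within MHCIIhi (adjusted p = 3.1e-06). Between MHCIIhi and MHCIIlo of Tspan8neg cells the log2FC of Dsc1 was 1.37 ± 0.49, which was not called (adjusted p = 0.0404).

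Dsc2 (20030633 to 20059554) and Dsc3 (19960930 to 20002351), the other desmocollins, were called higher with Tspan8 within MHCIIhi and not within MHCIIlo. Dsc2 was at 144 and 68.8 CPM in Tspan8negMHCIIlo, 78.6 and 80.2 CPM in Tspan8negMHCIIhi, 244 and 185 CPM in Tspan8posMHCIIhi, and 155 and 133 CPM in Tspan8posMHCIIlo. The 2 Tspan8negMHCIIlo libraries differed most for this gene, and 1 of them overlapped the Tspan8posMHCIIlo pair. Its log2FC was 1.43 ± 0.27 within MHCIIhi (adjusted p = 0.00183) and 0.43 ± 0.28 within MHCIIlo (adjusted p = 0.24). Dsc3 was at 101 and 64.1 CPM in Tspan8negMHCIIlo, 37.4 and 36.3 CPM in Tspan8negMHCIIhi, 99.8 and 78.6 CPM in Tspan8posMHCIIhi, and 71.5 and 77.8 CPM in Tspan8posMHCIIlo. Only Tspan8negMHCIIhi lay apart from the other subsets, below all of them. Its log2FC was 1.28 ± 0.21 within MHCIIhi (adjusted p = 0.000676) and -0.13 ± 0.21 within MHCIIlo (adjusted p = 0.649). The interaction was not called for Dsc2 (-1.0 ± 0.39, adjusted p = 0.123) or Dsc3 (-1.41 ± 0.30, adjusted p = 0.0115) by edgeR as fitted here. For Dsc3 it was called in 7 of 17 alternative fits, including DESeq2 (-1.35, adjusted p = 0.00345) and the replicate block (-1.35, adjusted p = 0.00337). Without replicate 2 of Tspan8negMHCIIhi, Dsc2 (adjusted p = 0.0231), Dsc3 (adjusted p = 0.0136) and Pkp3 were no longer called within MHCIIhi so that 5 genes were called. Without replicate 1 of Tspan8negMHCIIhi the calls of Dsc2 (adjusted p = 0.0234) and Dsc3 were lost, and without replicate 1 of Tspan8posMHCIIhi that of Dsc2 (adjusted p = 0.0216).

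Dsg1a and Dsg2 were not called in either Tspan8 comparison. Dsg2 (20558074 to 20604521), the desmoglein of simple epithelia, was at 508 and 351 CPM in Tspan8negMHCIIlo, 629.9 and 567 CPM in Tspan8negMHCIIhi, 534 and 420.2 CPM in Tspan8posMHCIIhi, and 525 and 469.6 CPM in Tspan8posMHCIIlo. Both Tspan8negMHCIIhi libraries lay above all others, the other subsets overlapped, and its highest subset mean was 1.39 times its lowest. Its exons overlap Gm16090 on the opposite strand, and 4.25% of its 31-base words are shared with other genes. Its log2FC with Tspan8 was 0.21 ± 0.18 within MHCIIlo (adjusted p = 0.389) and -0.33 ± 0.18 within MHCIIhi (adjusted p = 0.183). Dsg1a (20310811 to 20343350), the mouse desmoglein 1 alpha gene, was at 115 and 78.3 CPM in Tspan8negMHCIIlo, 267 and 289 CPM in Tspan8negMHCIIhi, 228 and 189 CPM in Tspan8posMHCIIhi, and 181 and 187 CPM in Tspan8posMHCIIlo. It was lowest in Tspan8negMHCIIlo, whose libraries lay below all others, and highest in Tspan8negMHCIIhi.

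Within MHCIIlo the log2FC of Dsg1a with Tspan8 was 0.94 ± 0.18, under the fold limit although its adjusted p was 0.00192, and within MHCIIhi it was -0.41 ± 0.17 (adjusted p = 0.0841). The interaction was called for Dsg1a, 1 of the 10 genes, at 1.35 ± 0.25 (adjusted p = 0.00671), beside 4.60% of all genes tested. That call was lost in the 6 fits that left out a library of a subset other than Tspan8negMHCIIlo, where the adjusted p ran from 0.0177 to 0.0423. Dsg1a shares 41.4% of its 31-base words with other genes, mainly its neighbours Dsg1b and Dsg1c, so reads may have been split among them. With the counts of these genes summed, the log2FC was 1.05 ± 0.19 within MHCIIlo (adjusted p = 0.00101), which was called, and -0.36 ± 0.18 within MHCIIhi (adjusted p = 0.135).

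**Figure D2:**
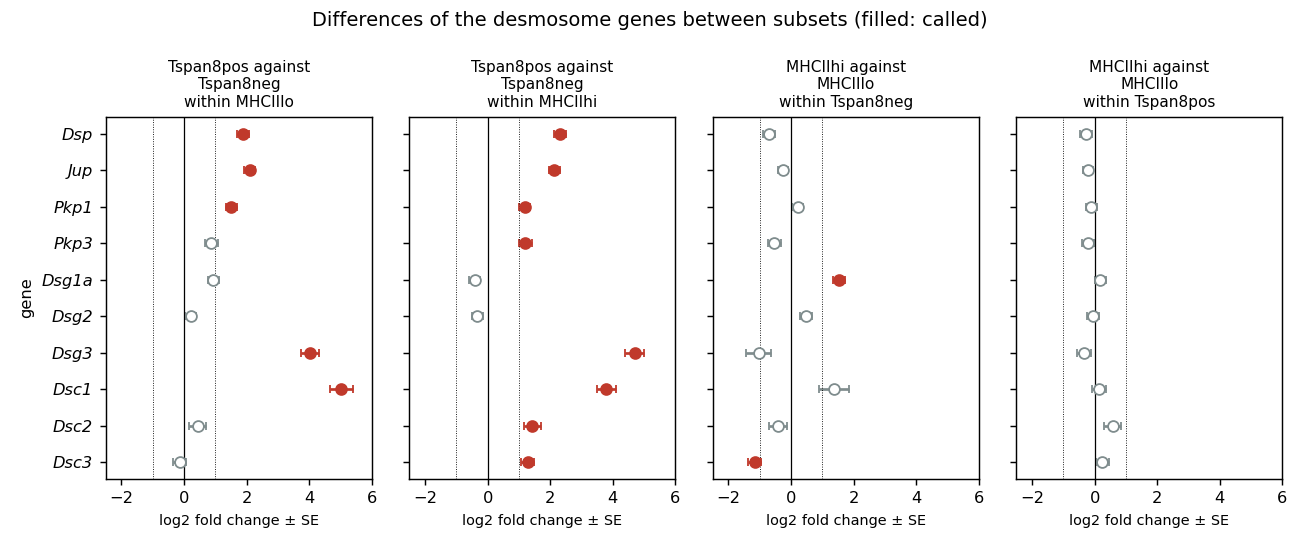
Log2 fold change with its standard error for each desmosome gene in the Tspan8 comparisons (left) and the MHCII comparisons (right); filled points are called and dotted lines mark the fold limit of 1. The Tspan8 panels hold 5 and 8 filled points and the MHCII panels hold 2 and 0.

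The Tspan8 comparison within MHCIIlo was also fitted without each Tspan8negMHCIIlo library. Both of these libraries had a higher summed CPM of thymocyte markers than any other library. Without replicate 2, at 1012 CPM of these markers, 5 genes were called against replicate 1, at 359 CPM, with log2FC values of 1.60 for Dsp, 1.86 for Jup, 1.25 for Pkp1, 3.80 for Dsg3 and 5.46 for Dsc1. Without replicate 1, 8 genes were called, Pkp3 (1.20), Dsg1a (1.23) and Dsc2 (1.04) being added. Epcam, the epithelial gene used in the sort, was also lower in replicate 2, at 367 CPM against 518 CPM. Within MHCIIlo Epcam was itself called higher with Tspan8, at means of 1017 CPM in Tspan8pos and 443 CPM in Tspan8neg. Within MHCIIhi it was not called. The part of this difference in the calls of the desmosome genes was not tested. Markers of other cell types were called at both MHCII levels. Of the 17006 genes tested, 1588 were called lower with Tspan8 within MHCIIlo and 1267 within MHCIIhi. Within MHCIIlo, 2 of 8 thymocyte markers (Cd3e and Lck), 4 of 6 cortical epithelial markers (Ctsl, Cxcl12, Dll4 and Prss16), Cd79a of B cells, Itgax of dendritic cells, Dcn of fibroblasts and Pecam1 of endothelium were called lower in Tspan8pos cells, and the endothelial Tek was called higher. Within MHCIIhi, 0 of 8 thymocyte and 0 of 6 cortical epithelial markers were called, while the fibroblast genes Col1a1 and Pdgfrb and the dendritic cell genes Flt3 and Zbtb46 were called lower and Sirpa higher.

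**Figure D3:**
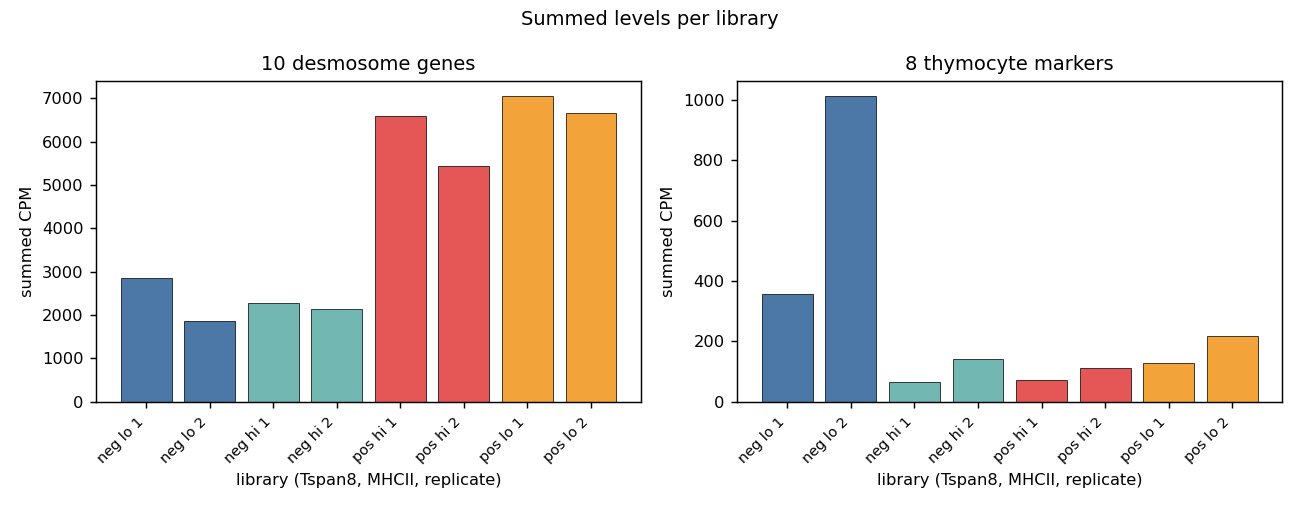
Summed CPM of the 10 desmosome genes (left) and of 8 thymocyte markers (right) in each library, colours marking the subset. The desmosome sum is 5448 CPM or more in the 4 Tspan8pos libraries, mostly from Dsp and Jup, and at most 2862 CPM elsewhere. The thymocyte sum is highest, at 1012 CPM, in replicate 2 of Tspan8negMHCIIlo.

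The comparisons by MHCII level gave counts near the background of all genes. Within Tspan8neg, 1 of the 10 genes was called higher in MHCIIhi, Dsg1a, and 1 lower, Dsc3, beside 13.1% and 9.67% of all genes tested. Dsg1a rose by a log2FC of 1.53 ± 0.18 (adjusted p = 7.24e-05) and was also called without each single library. Dsc3 fell by 1.16 ± 0.21 on the log2 scale (adjusted p = 0.00121). The call for Dsc3 was lost without replicate 1 of Tspan8negMHCIIlo, where it fell by 0.81, and without either library of Tspan8negMHCIIhi. Dsp had a log2FC of -0.71 ± 0.19 here and was not called (adjusted p = 0.012). All 8 thymocyte markers had lower levels in Tspan8negMHCIIhi, 5 of them called, so both genes were compared across subsets that also differed in these markers.

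Within Tspan8pos, 0 of the 10 genes were called between MHCIIhi and MHCIIlo by edgeR, where 7.21% of all genes were called in either direction. DESeq2 also called 0, and 0 of the 10 had an unadjusted p under 0.05. The values ranged from -0.34 ± 0.22 for Dsg3 to 0.58 ± 0.27 for Dsc2. Changes of this size were not detectable here, which does not show that the levels are the same. Across the gates, 6 genes were called higher in Tspan8posMHCIIhi than in Tspan8negMHCIIlo (14.4% of all genes) and 7 higher in Tspan8posMHCIIlo than in Tspan8negMHCIIhi (14.7%). Dsp, Jup, Pkp1, Dsg3 and Dsc1 were called in both of these. Dsg1a was added in the first (1.11, adjusted p = 0.000491), and Pkp3 (1.41) and Dsc3 (1.03, adjusted p = 0.00208) in the second. Dsc3 was called in 9 of 18 alternative fits, and in the other 9 its log2FC ran from 0.90 to 0.99, under the fold limit. These 9 include the fits without either Tspan8negMHCIIhi library (0.94 without replicate 1 and 0.90 without replicate 2) and without replicate 2 of Tspan8posMHCIIlo (0.96). The Dsg1a call was lost without replicate 2 of Tspan8negMHCIIlo (0.86) and without replicate 1 of Tspan8posMHCIIhi (0.99). Dsc2, at 1.02 in the first comparison (adjusted p = 0.0104), was not called by edgeR as fitted here but was in 7 of 18 alternatives, including DESeq2 (1.03), the replicate block (1.05) and the fit without replicate 1 of Tspan8negMHCIIlo (1.66).

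The make-up of the desmosomal cadherins was described as each gene's share of its family, on counts per kilobase of annotated exon. Among desmogleins, with Dsg1a, Dsg1b and Dsg1c added, Dsg3 took 1.18% ± 0.040 (SD, n = 2) in Tspan8negMHCIIlo, 0.272% ± 0.15 in Tspan8negMHCIIhi, 8.88% ± 0.73 in Tspan8posMHCIIhi and 11.9% ± 0.22 in Tspan8posMHCIIlo. Dsg2 took 69.3% ± 0.98 in Tspan8negMHCIIlo and 46.5% to 50.8% in the other subsets, while Dsg1 took 27.6% ± 0.35 there and 37.1% to 46.5% elsewhere. Every library of Tspan8negMHCIIlo thus lay above all others for the Dsg2 share and below all others for the Dsg1 share. Among desmocollins, Dsc1 took 0.980% ± 0.71 in Tspan8negMHCIIlo, 3.29% ± 1.8 in Tspan8negMHCIIhi, 16.3% ± 0.78 in Tspan8posMHCIIhi and 19.8% ± 0.79 in Tspan8posMHCIIlo. Dsc2 was the main desmocollin in every library, at 51.4% to 66.9%. With 2 libraries per subset the smallest two-sided p of an exact permutation test is 0.333, so no test of the shares is given.

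**Figure D4:**
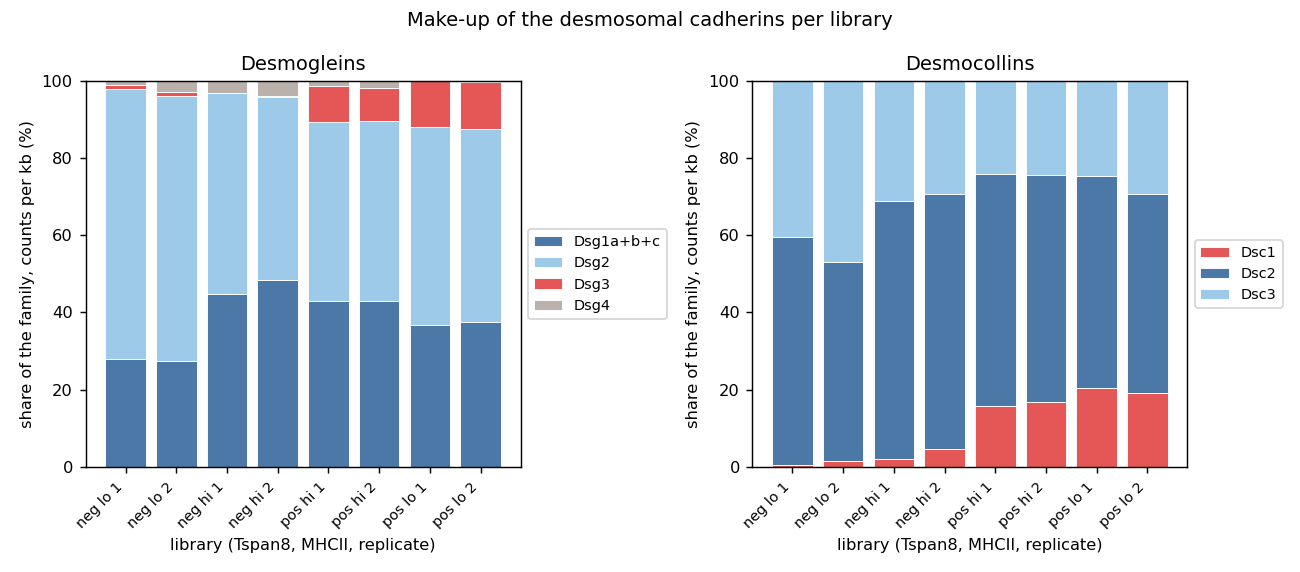
Share of each desmoglein (left) and desmocollin (right) in its family, in percent of counts per kilobase of exon, for each library. Dsg3 and Dsc1, in red, take 8.36% to 12.1% and 15.8% to 20.4% in the Tspan8pos libraries, and at most 1.20% and 4.54% in the Tspan8neg libraries.

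Per kilobase of annotated exon, Dsp had the highest mean level of the 10 in Tspan8posMHCIIlo, at 359.9 ± 1.4 CPM per kb, followed by Jup at 221 ± 23 and Pkp1 at 125 ± 4.4. Divided by the longest transcript instead, Jup was at 444 and Dsp at 362 CPM per kb, so the order of these genes depends on the length used. Dsg3 and Dsc1, at 14.1 ± 0.64 and 10.2 ± 1.0 CPM per kb, were near Dsc3 at 13.8 ± 0.83 even in the subset where Dsg3 was highest. In Tspan8negMHCIIhi the highest level per kilobase of exon was that of Dsg2, at 72.4 ± 5.3, above Dsp at 59.5 ± 4.5 CPM per kb.

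The order of the subsets differed between genes. Dsp, Jup, Pkp3 and Dsg3 were ordered Tspan8posMHCIIlo, Tspan8posMHCIIhi, Tspan8negMHCIIlo and Tspan8negMHCIIhi from high to low, and for Dsp, Jup and Dsg3 only the step from Tspan8posMHCIIhi to Tspan8negMHCIIlo was called. For Pkp3 no step between neighbours was called. Pkp1 and Dsc1 had Tspan8negMHCIIhi above Tspan8negMHCIIlo, and again only the step between the Tspan8 sides was called. Dsc2, Dsg1a and Dsg2 had no called step between neighbours in their orders, and Dsc3 had 1, from Tspan8posMHCIIlo down to Tspan8negMHCIIhi. On log2 CPM centred per gene over the 8 libraries, Dsp and Jup were the closest pair, with a root mean square difference of 0.187. Dsg3 and Dsc1 were each other's nearest member (0.831), as were Dsg1a and Dsg2 (0.420) and Pkp1 and Pkp3 (0.329). Among the 11037 other genes that averaged 10 CPM or more, Plpp2 (0.108), Pls3 (0.114), Efnb2 (0.118), Cast (0.132) and Aen (0.140) had profiles most like the mean profile of the 10.

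The desmosomal relatives outside the 10 did not follow a single pattern. Dsg1b, which shares 60.0% of its 31-base words with other genes, mainly Dsg1a, was at 17.1 and 12.5 CPM in Tspan8negMHCIIlo, 71.5 and 76.1 CPM in Tspan8negMHCIIhi, 77.3 and 53.2 CPM in Tspan8posMHCIIhi, and 54.4 and 37.3 CPM in Tspan8posMHCIIlo. Pkp4, a plakophilin relative of cell contacts, was at 156 and 112 CPM in Tspan8negMHCIIlo, 41.0 and 43.5 CPM in Tspan8negMHCIIhi, and 91.2 to 110.5 CPM in the Tspan8pos libraries. It was called higher with Tspan8 within MHCIIhi (1.17 ± 0.18, adjusted p = 0.000377) and not within MHCIIlo (-0.40 ± 0.17, adjusted p = 0.0898). Pkp2, the plakophilin known from heart and simple epithelia, was at 16.5 to 28.6 CPM and was called in none of the 7 contrasts. Dsg4 was called lower with Tspan8 within MHCIIlo (-2.55 ± 0.65, adjusted p = 0.00885), on 0 and 7 counts in Tspan8posMHCIIlo, and Dsg1c, at 0 to 7 counts, did not pass the filter.

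Proteins that work with the desmosome in stratified and cornifying epithelia were counted from lists chosen by role. Of 6 genes tied to the desmosome or the cornified plaque, 5 were called higher with Tspan8 at both MHCII levels. The background was 12.1% of all genes tested called higher within MHCIIlo and 11.0% within MHCIIhi. Ppl, encoding periplakin, rose by log2FC 2.59 ± 0.17 within MHCIIlo and 2.28 ± 0.17 within MHCIIhi. Evpl, encoding envoplakin, rose by 3.07 ± 0.18 and 3.24 ± 0.18, and Perp, a membrane protein needed for desmosome assembly, by 1.94 ± 0.23 and 3.27 ± 0.24. Cdsn, encoding corneodesmosin of the modified desmosomes of cornified cells, rose by 5.83 ± 0.22 and 3.59 ± 0.19, from 4.21 and 7.78 CPM in Tspan8negMHCIIlo to 359 and 341 CPM in Tspan8posMHCIIlo. Kazn was not called at either level. The largest adjusted p of these called values was 5.7e-05, for Perp within MHCIIlo.

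Keratins are the filaments that desmosomes anchor. Within MHCIIlo 8 of 11 keratin genes were called higher, beside 12.1% of all genes tested. In that comparison 1 was called lower, beside 1588 of the 17006 genes tested. Within MHCIIhi 9 of 11 were called higher, beside 11.0% of all genes. Krt10, a keratin of suprabasal epidermis, rose by 5.20 ± 0.25 within MHCIIlo and 4.69 ± 0.24 within MHCIIhi. Krt14, a basal keratin, fell by 1.85 ± 0.24 on the log2 scale within MHCIIlo (adjusted p = 1.0e-04) and was not called within MHCIIhi (0.44 ± 0.23, adjusted p = 0.16). Of 7 genes for proteases and the inhibitor known to act on corneodesmosomes, 6 were called higher within MHCIIlo and 5 within MHCIIhi. The same 12.1% and 11.0% of all genes are their background. Klk7 rose by 6.46 ± 0.22 and 3.08 ± 0.18, and Spink5, the inhibitor of such kallikreins, by 5.70 ± 0.33 and 5.40 ± 0.32. Klk5 was called within MHCIIlo (4.03 ± 0.37) and not within MHCIIhi (-0.12 ± 0.27, adjusted p = 0.76). Its lower Tspan8negMHCIIlo library held 4 counts, so the value within MHCIIlo is imprecise.

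Of 6 transcription factors known for desmosomal genes in other epithelia, 4 were called higher with Tspan8 within MHCIIlo and 5 within MHCIIhi. The background, here and for the adherens junction genes below, was 12.1% of all genes tested within MHCIIlo and 11.0% within MHCIIhi. Grhl1 rose by 2.79 ± 0.18 and 2.60 ± 0.17, Grhl3 by 3.02 ± 0.22 and 1.55 ± 0.19, and Klf4 by 1.48 ± 0.15 and 2.00 ± 0.15. Trp63, which encodes the basal-cell factor p63, was not called in either (-0.80 ± 0.16 and 0.81 ± 0.16, under the fold limit). Of 11 adherens junction genes, 4 were called higher within MHCIIlo and 6 within MHCIIhi, with medians of 0.77 and 1.05. Cdh1, the E-cadherin gene, was called within MHCIIhi (1.21 ± 0.22) and not within MHCIIlo (0.77 ± 0.22, adjusted p = 0.015). Nectin4 rose by 3.42 ± 0.18 and 2.35 ± 0.16. These counts describe the lists, and no list was tested as a set.

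Between MHCIIhi and MHCIIlo of Tspan8pos cells, where no desmosome gene was called, few of these listed genes were either. In either direction, 7.21% of all genes tested were called there. Cdsn fell by 1.26 on the log2 scale (adjusted p = 0.000348) and Klk7 by 1.21 (adjusted p = 0.000417), so both were lower in MHCIIhi. Dsg4, the desmoglein of hair and cornifying cells, was called higher in MHCIIhi (3.16 ± 0.61, adjusted p = 0.00478), against 0 and 7 counts in MHCIIlo. Of the 11 keratins, 11 adherens junction genes and 6 transcription factors, 0 were called by edgeR, with 4, 2 and 1 of them at an unadjusted p under 0.05. In Tspan8neg cells the same comparison gave 1 keratin called higher and 5 lower in MHCIIhi, and 4 of the 7 protease and inhibitor genes higher. Of all genes tested, 13.1% were called higher and 9.67% lower in that comparison. Of the transcription factors, Grhl3 was called higher there and Grhl2, Klf5 and Trp63 lower. The adherens junction genes Cdh3 and Vcl, and Perp of the desmosome-associated genes, were called lower. Of the other desmosomal relatives, Dsg1b and Dsg4 were called higher and Pkp4 lower.

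**Figure D5:**
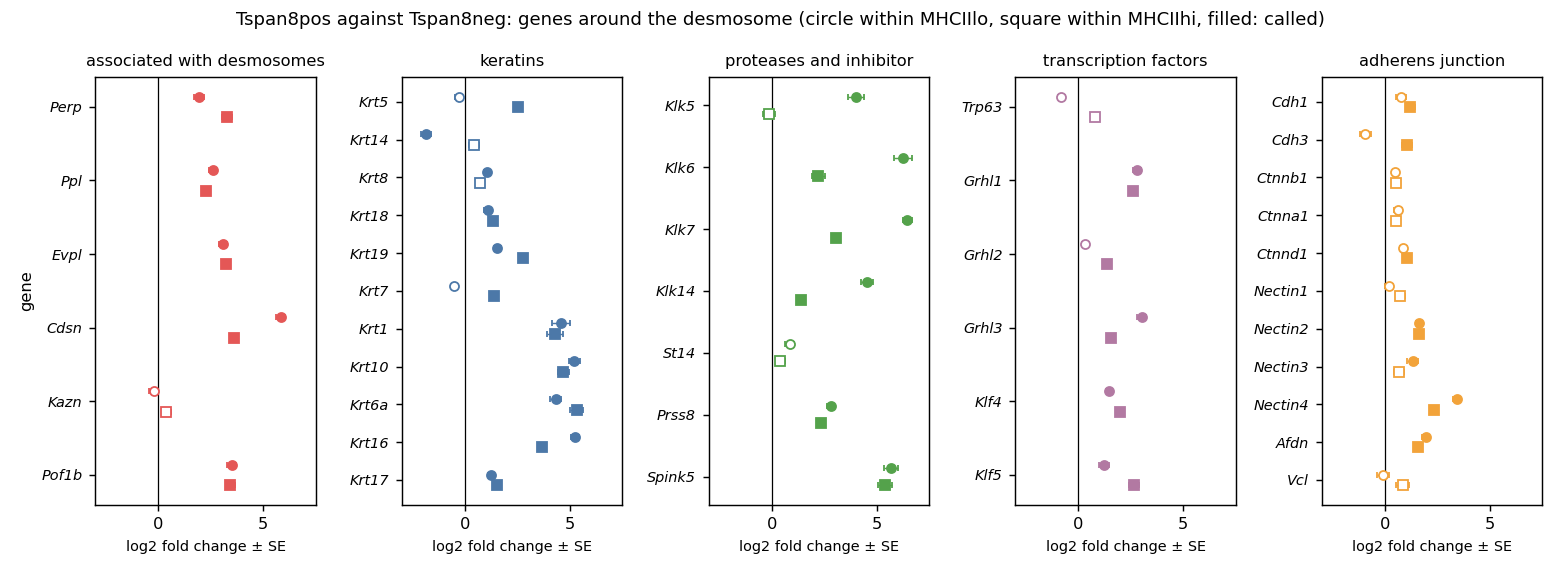
Log2 fold change between Tspan8pos and Tspan8neg cells, with standard error, for 5 gene lists; circles are within MHCIIlo, squares within MHCIIhi, and filled symbols are called. In the first panel 5 of 6 genes are called at both levels, and Krt14 is called lower within MHCIIlo.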

How the data were processed

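RNA of sorted mTECs was sequenced in 8 libraries (54 bp single-end reads). Per the labels and the study's methods, the authors quantified reads with Salmon 1.8.0 on GENCODE vM10 (mm10) and deposited estimated counts per gene. The deposited estimated counts were whole numbers, so rounding changed nothing, and the step that summed transcripts to genes is not given in the sources used here. The labels name a stranded mRNA kit and the study's methods an amplified cDNA protocol, so overlapping genes on opposite strands are uncertain. Of 25466 identifiers, 25336 (99.5%) matched a symbol in GENCODE vM21. A row that matched none stayed in the fit under its identifier.

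Genes were filtered with filterByExpr and tested with edgeR 4.0.16 in R 4.3.3 (TMM, quasi-likelihood F test, 4 group means over all 8 libraries, Benjamini-Hochberg over 17006 genes). Calls needed an adjusted p under 0.01 and an absolute log2FC of at least 1. The SE is the log2FC divided by the square root of F. The biological coefficient of variation was 15.5%, and each pair of replicates differed beyond sampling noise (chi-square per gene 3.29 to 9.84). P-values measure the spread between these libraries. The SE comes from the same test, and an SD is the spread of 2 libraries. The floor of 3 counts covers counting error only, and PCR copies are not independent molecules. The script was tested on simulated data.

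The 10 members, the other lists and the rule for naming genes (all members and listed genes by role, plus the 5 closest profiles) were chosen with earlier results of these data known. Alternatives were DESeq2 1.42.0, its size factors in edgeR, other filters and thresholds, 4 libraries per fit, a replicate block, each library left out, summed Dsg1 counts and thinned libraries.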

Additional observations from a re-analysis of the deposited data

Results flagged for a closer look

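The Tspan8 difference itself differed between MHCIIlo and MHCIIhi, by the interaction term of the edgeR quasi-likelihood fit, for 1 of the 10 desmosome genes, for 15 genes of the other epithelial lists, and for 4 further genes of the cell type marker lists. Of all genes tested, 4.60% were called for the interaction in either direction. Only the 10 desmosome genes were followed in the alternative fits, where the Dsg1a interaction was called in 11 of 17. How stable the calls of the other genes are was not tested. Values are the log2FC within MHCIIlo minus that within MHCIIhi, with Benjamini-Hochberg adjusted p. Dsg1a had 1.35 (adjusted p = 0.00671) and its neighbour Dsg1b 1.76 (adjusted p = 0.00804), with reads possibly split between them, while Pkp4 had -1.57 (adjusted p = 0.00271). The kallikrein genes had the widest values, with Klk5 at 4.15 (adjusted p = 0.000485), Klk6 at 4.02 (adjusted p = 0.00149), Klk7 at 3.38 (adjusted p = 0.000175) and Klk14 at 3.13 (adjusted p = 0.000441). In Tspan8negMHCIIlo the lower library held 4 counts of Klk5 and 1 count of Klk6, so the Klk5 and Klk6 values are imprecise. Cdsn had 2.24 (adjusted p = 0.00102). Among keratins, Krt16 had 1.55 (adjusted p = 0.00171), Krt5 -2.83 (adjusted p = 0.000183), Krt14 -2.29 (adjusted p = 0.00174), Krt7 -1.89 (adjusted p = 0.000317) and Krt19 -1.25 (adjusted p = 0.00682). Cdh3 had -1.98 (adjusted p = 0.0057), Trp63 -1.60 (adjusted p = 0.00174) and Grhl3 1.47 (adjusted p = 0.00873). Among the cell type markers, the mTEC marker Cd80 had 1.97 (adjusted p = 0.00873), the cortical epithelial markers Ctsl -1.78 (adjusted p = 0.00198) and Cxcl12 -2.15 (adjusted p = 0.00384), and the dendritic cell marker Zbtb46 1.63 (adjusted p = 0.0048). Tspan8negMHCIIlo, which enters every one of these values, had the highest thymocyte marker levels, and their part was not tested.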

How the results depend on the processing

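Of 1250 values of single desmosome genes recomputed under the alternatives, 1175 kept their direction and their side of the threshold, 25 passed it, 28 no longer passed it and 22 changed sign. None of the 22 (0) was a value called in the fit reported. Some alternatives could change little, since they left out a library outside the comparison or altered only a threshold. Leaving out 1 library gave 5 to 8 genes called for Tspan8 within MHCIIlo, 5 to 8 within MHCIIhi, 1 to 3 for MHCII within Tspan8neg, 0 for MHCII within Tspan8pos, and 0 to 3 for the interaction. The 8 within MHCIIlo came without Tspan8negMHCIIlo replicate 1, and the 5 within MHCIIhi without Tspan8negMHCIIhi replicate 2. For MHCII within Tspan8neg, the 4 libraries of the comparison alone gave 1 gene, Dsg1a, in place of 2. The interaction gave 2 genes in place of 1, with Dsc3 added, by DESeq2, with no filter, with an adjusted p under 0.05 and in thinned libraries. The replicate number as a block also gave 2 for the interaction. Libraries with the same number had correlations of deviations of 0.00402 to 0.0924. With 2 libraries per subset these values cannot show whether the numbers mark the same mice. The sources used here do not give it. The block otherwise moved no count by over 1.5 times.

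The Dsc1 share was 17.9% in Tspan8posMHCIIhi and 21.8% in Tspan8posMHCIIlo with the longest transcript as length, and 19.0% in Tspan8posMHCIIlo with plain counts. The Dsg3 share was 1.01% in Tspan8negMHCIIlo and 10.9% in Tspan8posMHCIIlo with the longest transcript, and 1.11% in Tspan8negMHCIIlo with plain counts.

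The Dsg2 share was higher and the Dsg1 share lower with either other length than with exon length, and Tspan8negMHCIIlo had the highest Dsg2 and the lowest Dsg1 share under each.

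With 1 library left out, these uncalled log2FC values changed sign within a range. For Tspan8 within MHCIIlo, Dsc2 ran from -0.0177 to 1.04, Dsc3 from -0.43 to 0.22 and Dsg2 from -0.0349 to 0.49. For MHCII within Tspan8neg, Dsc2 ran from -0.87 to 0.20, Jup from -0.51 to 0.0164 and Pkp1 from -0.0541 to 0.50. For MHCII within Tspan8pos, Dsg2 ran from -0.22 to 0.11 (0.0472 without Tspan8posMHCIIlo replicate 1) and Pkp1 from -0.22 to 0.0153. For Tspan8posMHCIIhi against Tspan8negMHCIIlo, Dsc3 ran from -0.18 to 0.49 (-0.0512 without Tspan8posMHCIIhi replicate 1) and Dsg2 from -0.0886 to 0.46 (-0.0146 without that library). The Jup interaction of -0.04 ran from -0.29 to 0.21. It was 0.0254 by DESeq2 and with its size factors, 0.0261 with no filter, 0.028 in thinned libraries and 0.0013 with at least 10 counts in 4 libraries. It was 0.0475 and 0.0125 without Tspan8negMHCIIhi replicates 1 and 2, and 0.057 without Tspan8posMHCIIlo replicate 2. The cause of these changes was not tested. Totals differ 4.01-fold between libraries, and 2 libraries per subset limit the precision.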
